A study of Mus musculus with 18 samples.

Results

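The 167 probe sets described here are those annotated to 1 gene symbol beginning with Kcn and a further letter, the symbols of potassium channel subunits, on an array that held 45037 probe sets outside the array's own controls. They covered 84 of the 18193 genes on the array with a single symbol. The members were chosen by symbol alone, with no measured value in the rule. Of the 84 genes, 81 encode channel subunits or their auxiliary proteins, and Kcnq1ot1, Kcnmb4os1 and Kcnmb4os2 are noncoding transcripts that share the symbol's opening letters.

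Intensities came from 18 arrays, 9 of RNA immunoprecipitated from brain (IP) and 9 of total RNA of whole brain (WB). All samples came from mice of the C57BL/6J X DBA/2J background that carried a bacterial artificial chromosome in which the orexin coding sequence was replaced by a flag-tagged rat cDNA of the poly(A)-binding protein, joined through an IRES to eGFP. The labels give ages of 11 and 14 weeks without assigning them to samples. For IP, brains perfused with formaldehyde were lysed, anti-flag beads retained the tagged protein with the RNA crosslinked to it, and the RNA was released by reversing the crosslinks. The amount amplified was 5 ng of RNA per sample (NuGEN WT-Ovation Pico). Several features limit IP as a model of orexin neurons. The protein captured is expressed from a transgene whose expression follows the orexin gene's regulatory sequence, RNA can bind to beads without the tagged protein, and an immunoprecipitate from mice without the transgene was not analysed here. The labels do not say that each sample came from its own animal, so p-values measure only how far these samples spread, and that spread may be technical. Precision is limited by there being 9 arrays in a group.

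Potassium channels are membrane pores that let potassium ions flow down their gradient, which mostly brings a neuron back towards rest and makes it less likely to fire. Voltage-gated subunits open on depolarisation and shape the spike and the firing rate, inward rectifiers and two-pore subunits carry the current near rest, and calcium- and sodium-activated channels link firing to a later hyperpolarisation. Auxiliary subunits carry no ions and change the gating or the surface level of their partners. Orexin neurons of the lateral hypothalamus sustain wakefulness, and two-pore channels of the Kcnk3 and Kcnk9 kind, G protein-gated inward rectifiers built from Kcnj3 and Kcnj6, and the ATP-sensitive subunit Kcnj8 have been described in them.

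The label of the IP samples was checked first. Hcrt, which encodes the orexin precursor, had intensities of 73.8 at the lowest, 308.0 at the median and 490.6 at the highest in IP, against 156.4, 247.5 and 388.1 in WB. These ranges overlapped, and the difference of 0.21 on the log2(intensity + 16) scale (SE 0.28, adjusted p = 0.568, limma) did not pass the threshold of 0.05. Markers were read on the brightest probe set of each gene, the one with the highest mean over the arrays. Of the 5 orexin neuron markers listed, Nptx2 was higher in IP and Pdyn lower, and the other 3 did not pass. Marker genes of other cells were also measured in IP. For astrocytes 3 of 6 were higher and 2 lower in IP, for oligodendrocytes 2 and 1 of 4, for microglia 1 and 2 of 5, for endothelial and mural cells 1 and 4 of 6, and for neurons in general 3 and 2 of 5. Over all genes, 21.7% were higher and 21.7% lower on their brightest probe sets. Other probe sets of Aqp4, Gfap, Gja1, Cnp, Mbp, Rbfox3 and Syt1 were called the other way. The brightest of Gja1, Cnp and Mbp end in _x_at, a class of which 41.0% were higher over the array. The summed intensity of the 6 astrocyte markers ran from 36914 to 68237 in IP, against 24391 to 33631 in WB, and that of the 4 oligodendrocyte markers from 39806 to 97473 in IP, against 20648 to 30639 in WB. The sums for neurons (74084 to 133153 in IP, 53362 to 73448.5 in WB) and microglia (3729 to 8229 in IP, 1954 to 3619.9 in WB) were higher in IP too, and that for endothelial and mural cells overlapped, with 3948 to 6424 in IP and 5632 to 6744 in WB. Each sum took the brightest probe set of each gene, so a bright gene can carry it. Among microglial markers, Csf1r had medians of 5147 in IP and 1606 in WB, but Aif1 had 14.6 and 409 and C1qa 54.3 and 341. Among neuronal markers, Snap25 had 52425 and 36688, but Syt1 had 3627 and 8887 and Tubb3 408 and 3674. The sums therefore do not give a direction for a cell type as a whole. The IP means of Pdyn, Aldh1l1, Aif1 and C1qa lay below that of dim control probe sets, those of the bacterial trpn transcript. The samples are called IP here, after how they were made and not after a cell type. A difference between IP and WB cannot tell apart fewer cells of a type from less RNA per cell.

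The arrays also differed in ways that run alongside the groups. The log2 difference between the 3′ and 5′ control probe sets of Gapdh was 3.33 to 5.45 in IP and 1.33 to 1.78 in WB, and that of the bacterial control transcript lys was 3.71 to 6.16 in IP and 1.38 to 2.45 in WB. That of actin did not separate the groups, with medians of -0.22 in IP and -0.20 in WB. Correlations across probe sets ran from 0.805 to 0.906 between IP arrays and from 0.922 to 0.954 between WB arrays. For the members, the median SD on the log2 scale was 0.69 over IP arrays and 0.30 over WB arrays, and the IP spread was the larger for 145 of the 167. The part of these measures in the results below was not tested.

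Among the 167 probe sets, 22 were higher in IP and 59 lower at an adjusted p of 0.05 taken over all 45037 probe sets, and 86 did not pass. The members' shares were 13.2% higher and 35.3% lower, and those over all probe sets were 14.2% and 30.8%. The median difference was -0.32 for the members and -0.23 for all probe sets. With a change of at least 2-fold required as well, 12 members were higher and 42 lower, which is 7.19% and 25.1% where all probe sets gave 7.72% and 21.9%. All 9 IP arrays lay above all 9 WB arrays for 8 members (4.79%, with 5.22% over all probe sets) and below them for 24 (14.4%, with 10.3%). With each gene represented by its brightest probe set, the one with the highest mean over the 18 arrays, 13 of the 84 genes were higher, 25 lower and 46 did not pass. Those are 15.5% and 29.8% of the genes, and over all genes the shares were 21.7% higher and 21.7% lower. By probe set, the shares of the family as a whole lay within 5 percentage points of the array's own.

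The split between higher and lower depends on how the arrays are put on one scale. The deposited values had been scaled to the same trimmed mean on every array. After quantile normalization 34 members were higher and 42 lower (24.1% and 22% of all probe sets), with each array centred on its median 37 and 39 (28.4% and 18.5%), and after scaling to the hybridization controls 6 and 115 (3.24% and 62.4%). The median of all probe sets moved to 0.11, 0.20 and -1.03 under these scalings. Relative to that median, the members' own median lay at -0.12, -0.09 and -0.10, and at -0.09 with the deposited scaling. Median centring shifts every difference by the same amount, so its relative value is that of the deposited scaling by construction. Falls on 18 member probe sets no longer passed under either quantile normalization or median centring. These were Kcna6 on 1421568_at, Kcnh1, Kcnh7, Kcns1, Kcns2, Kcnj8, Kcnj11 on 1450515_at, Kcnj14, Kcnj16 on 1436163_at, Kcnk3 on 1426058_a_at, Kcnk10, Kcnma1 on 1440728_at, Kcnn3, Kcnab2 on 1416956_at, Kcnab3 on 1421790_a_at, Kcne1 and Kcnq1ot1 on 1446255_at and 1441588_at. Under hybridization control scaling 16 of the 22 rises no longer passed. The other 6 were those of Kcnc1 on 1443855_at, Kcnc2, Kcnh3 on 1459107_at, Kcnk12, Kcnk13 on 1447645_x_at and Kcnt2. The means of that Kcnk13 probe set lay below those of the bacterial trpn controls in both groups. Without the 4 IP arrays that had the brightest hybridization controls, 12 calls were lost. These were Kcna1 on 1442413_at, Kcns2, Kcnj2, Kcnj8, Kcnk3 on 1426058_a_at, Kcnk10, Kcnk13, Kcnn3, Kcnab2 on 1416956_at, Kcne1 and Kcnq1ot1 on 1442029_at and 1441588_at.

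By class, inward rectifiers had 2 probe sets higher and 15 lower of 31, and voltage-gated subunits 11 higher and 20 lower of 65. Two-pore subunits had 4 higher and 3 lower of 18, calcium- and sodium-activated subunits 1 and 5 of 16, and auxiliary subunits 3 and 11 of 29. The median difference was -0.64 for inward rectifiers, -0.32 for voltage-gated, -0.06 for two-pore, -0.37 for calcium- and sodium-activated and -0.26 for auxiliary subunits, beside -0.23 for all probe sets. Taken relative to the median of all probe sets, inward rectifiers lay at -0.41 with the deposited scaling, -0.31 after quantile normalization and -0.51 with the hybridization controls. Two-pore subunits lay at 0.17, 0.16 and 0.19 in the same order. The differences between classes were not tested.

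**Figure D1:**
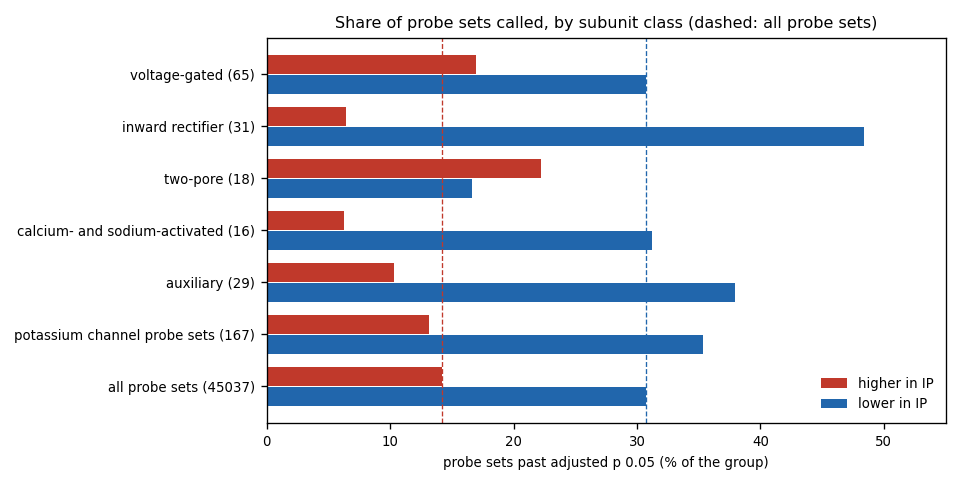
Share of probe sets past an adjusted p of 0.05 in each subunit class (horizontal axis, % of the group's probe sets, with the number of probe sets in brackets), higher in IP in red and lower in IP in blue. The dashed lines mark the shares over all 45037 probe sets, 14.2% higher and 30.8% lower, and inward rectifiers reach 48.4% lower.

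G protein-gated inward rectifiers open when transmitters such as opioids or serotonin act on their receptors, and hold neurons near rest. Their 4 subunit genes had 15 probe sets, of which 1 was higher in IP, 7 lower and 7 did not pass. The shares were 6.67% higher and 46.7% lower, with 14.2% and 30.8% over all probe sets. Kcnj3, which encodes a subunit found in most of these channels, was the only gene of the group with a call in each direction. Its brightest probe set, 1455374_at, gave 6712, 11249.7 and 14048 in IP (lowest, median and highest intensity), against 5669, 6395 and 7306 in WB. All but 1 of the IP arrays lay above the highest WB array. The difference was 0.74 (SE 0.13, adjusted p = 5.68e-05), or 1.67-fold higher, but its direction turned after quantile normalization (-0.13) and after scaling to the hybridization controls (-0.21). The other 3 probe sets of Kcnj3 were all lower in IP. Probe set 1421468_at ran through 175, 288 and 472 in IP and 718, 749.6 and 812 in WB, without overlap, a difference of -1.31 (SE 0.17, adjusted p = 9.74e-07). Probe set 1444025_at also separated the groups without overlap, with 414, 947 and 1148 in IP and 1259, 1536 and 1967 in WB (-0.94, SE 0.17, adjusted p = 8.72e-05). The last, 1444336_at, differed by -1.52 (SE 0.31, adjusted p = 0.000288), with 5 of the 9 IP arrays below the lowest WB array. Its IP mean lay below that of dim control probe sets, those of the bacterial trpn transcript. Set against that level in IP, it was at least 1.11-fold lower. Averaged over its 4 probe sets on the log2 scale, Kcnj3 was lower in IP by 0.76 (adjusted p = 2.79e-05), so the gene's direction rests on which probe set is read.

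Kcnj6, which encodes the G protein-gated subunit that pairs with the product of Kcnj3 in the forebrain, had 5 probe sets. On the brightest, 1425707_a_at, IP intensities of 373, 513 and 664 stood against WB intensities of 365, 440.4 and 691. The 2 ranges lay almost on each other, and the difference of 0.14 (SE 0.17, adjusted p = 0.56) did not pass. Probe set 1450294_a_at gave 7.82, 18.1 and 134 in IP, against 498, 609 and 777 in WB. No IP array came near the lowest WB array, and the difference of -4.02 (SE 0.30, adjusted p = 6.28e-11) was the largest fitted fall of any subunit probe set. Its IP mean lay below that of the dim control probe sets of the bacterial trpn transcript, so its size depends on the value of 16 added before the logarithm, and set against that control level in IP the probe set was at least 8.03-fold lower. Probe set 1421581_at separated the groups too, with 23.1, 64.1 and 156 in IP and 215, 285 and 313 in WB (-1.74, SE 0.28, adjusted p = 1.87e-05). In IP probe set 1425044_at fell by 2.17 (SE 0.33, adjusted p = 7.27e-06), at least 3.64-fold against the trpn level in IP. Probe set 1451868_at differed by -0.72 (SE 0.33, adjusted p = 0.0764), short of the threshold. The mean over the 5 was -1.70 (adjusted p = 1.3e-08). With the deposited scaling the brightest probe set thus showed no difference past the threshold where 3 others fell. It passed as higher after median centring (0.56, adjusted p = 0.00897) and quantile normalization (0.44, adjusted p = 0.0349) and as lower with scaling to the hybridization controls (-0.78, adjusted p = 0.00881). The sources used here do not place these probe sets in the transcript.

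Kcnj9, a further neuronal subunit of these channels, was lower in IP on its brightest probe set 1450712_at, which gave 313, 1128 and 1633 in IP and 1543, 2176 and 2651 in WB. In IP 8 of the 9 arrays lay below the lowest WB array, and the difference was -1.29 (SE 0.27, adjusted p = 0.000332). Its other 3 probe sets did not pass, with differences between -0.21 and 0.38. Kcnj5, a subunit best known from the heart, had differences of -0.45 (SE 0.30, adjusted p = 0.236) and 0.47 (SE 0.39, adjusted p = 0.344) on its 2 probe sets. Relative to the median of all probe sets, the median of the 15 G protein-gated probe sets was -0.49 with the deposited scaling. It was -0.31 after quantile normalization and -0.51 with the hybridization controls.

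**Figure D2:**
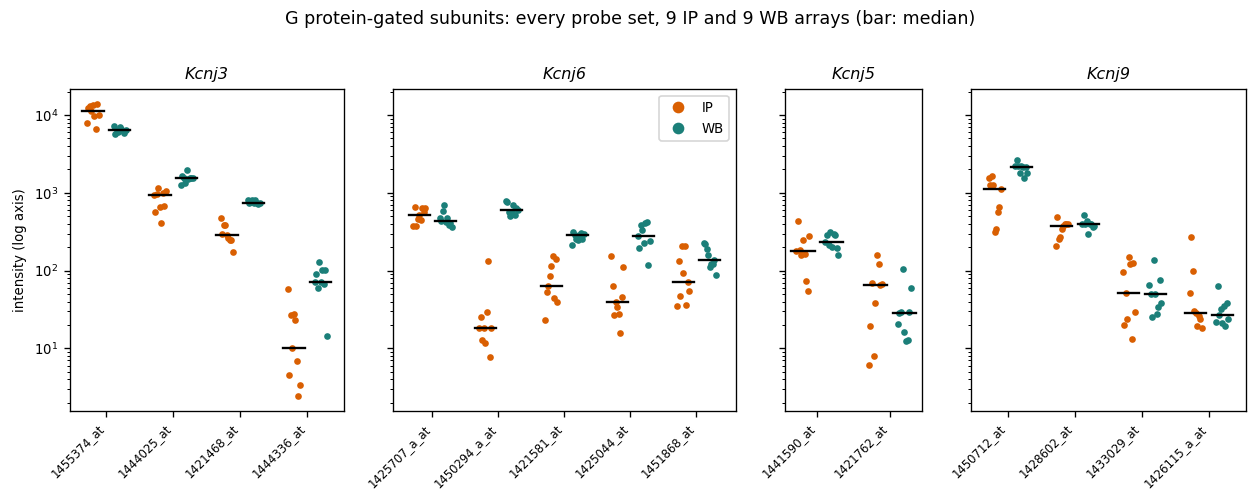
Intensity on a log axis for every probe set of the G protein-gated subunit genes Kcnj3, Kcnj6, Kcnj5 and Kcnj9, with 9 IP arrays (orange) left of 9 WB arrays (green) for each probe set and a bar at each median. Kcnj3 is higher in IP on 1455374_at and lower on its other 3 probe sets, and the groups overlap for Kcnj6 on 1425707_a_at but not on 1450294_a_at.

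The ATP-sensitive channels close when ATP rises and so tie excitability to metabolism. Kcnj8, a pore subunit of these channels that is also prominent in mural cells of vessels, had a single probe set, 1418142_at, with 37, 229 and 415 in IP and 259, 342 and 451 in WB. In IP 8 of 9 arrays lay below the lowest WB array, and the difference was -0.86 (SE 0.30, adjusted p = 0.0203). Quantile normalization ended the call (-0.45, adjusted p = 0.192), as did centring on the median (-0.43, adjusted p = 0.227) and the removal of the 4 IP arrays (-0.45, adjusted p = 0.0835). Of the 6 endothelial and mural cell markers, Vtn was 8.15-fold lower in IP, Cldn5 2.59-fold, Kdr 2.41-fold and Rgs5 1.32-fold lower, Pdgfrb was 3.12-fold higher and Pecam1 did not pass. The part of vessel cells in the value of Kcnj8 was not tested. Kcnj11, the other pore subunit, had a difference of -0.24 (SE 0.15, adjusted p = 0.198) on its brightest probe set, and its dim probe set 1450515_at fell by 0.95 (SE 0.38, adjusted p = 0.046), a call lost in 13 of the 18 fits that each left out 1 array. Against the trpn level in IP, that dim probe set was at least 1.73-fold lower.

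Kcnk3 encodes an acid-sensitive two-pore subunit that carries a leak current near rest. On its brightest probe set, 1425341_at, IP intensities ran from 161 through a median of 412 to 883, and WB intensities from 275 through 483 to 765. The WB range lay inside the IP range, and the difference was -0.16 (SE 0.26, adjusted p = 0.647). Probe set 1426058_a_at gave 53.3, 225 and 458 in IP and 282, 368 and 449 in WB, overlapping, with a difference of -0.79 (SE 0.32, adjusted p = 0.0457). This call was lost in 13 of the 18 fits that each left out 1 array, where the difference lay between -0.93 and -0.58. The brightest passed as lower under hybridization control scaling (-1.05, adjusted p = 0.00778) and turned with quantile normalization (0.15) and median centring (0.27), where it did not pass. The dimmest probe set, 1425342_a_at, had a difference of 0.28 (SE 0.40, adjusted p = 0.605). Kcnk9 was not analysed here.

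Among the other inward rectifiers, the classical strong rectifiers that clamp the resting potential were lower in IP wherever they passed. Kcnj4 gave the clearest separation, with 26.2, 34.2 and 48.6 in IP and 118, 215 and 441 in WB on its single probe set 1451808_at. The highest IP array was below the lowest WB array by more than a factor of 2, and the difference was -2.14 (SE 0.26, adjusted p = 3.3e-07), at least 2.94-fold lower against the trpn level in IP. The related Kcnj12, Kcnj2 and Kcnj14, each on 1 probe set, were also lower. Kcnj12 fell by 1.91 (SE 0.32, adjusted p = 2.83e-05), at least 2.79-fold against the trpn level in IP. Kcnj2 fell by 1.30 (SE 0.36, adjusted p = 0.00463) and Kcnj14 fell by 0.92 (SE 0.28, adjusted p = 0.00896). Quantile normalization and median centring each ended the call of Kcnj14, and that of Kcnj2 was lost without the 4 IP arrays (-0.63, adjusted p = 0.0941). Kcnj13, known from epithelia such as the choroid plexus, fell by 0.96 (SE 0.20, adjusted p = 0.000419).

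The products of the glial pair Kcnj10 and Kcnj16 form the channel by which astrocytes take up potassium. Kcnj16 was higher in IP on its brightest probe set 1435094_at, with 928, 1435 and 2437 in IP and 528, 751 and 1029 in WB and 6 IP arrays above the highest WB array, a difference of 0.91 (SE 0.20, adjusted p = 0.000518). This direction turned under hybridization control scaling (-0.02). Its second probe set, 1436163_at, fell by 0.64 (SE 0.22, adjusted p = 0.0223), a call lost after quantile normalization (-0.45, adjusted p = 0.0898) and after median centring (-0.21, adjusted p = 0.482). The mean over both probe sets of Kcnj16 did not pass (0.13, adjusted p = 0.57). Kcnj10 had 1 probe set and a difference of -0.02 (SE 0.19, adjusted p = 0.948), with overlapping ranges. The astrocyte markers beside these values went both ways, with Gfap 6.52-fold higher in IP, Gja1 2.58-fold higher and Aldh1l1 at least 4.51-fold lower against the trpn level in IP, and their part in the values of Kcnj16 was not tested. Kcnj1 and Kcnj15 did not pass on any of their 5 probe sets, with differences between -0.26 and 0.57.

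Of the 8 member probe sets with every IP array above every WB array, 6 belonged to voltage-gated subunits. That class had 65 probe sets, and 9 of them had every IP array below every WB array. Over all probe sets, 5.22% lay above without overlap and 10.3% below. Kcnc2, which encodes a fast channel of neurons that fire at high rates, had 1 probe set, 1455258_at, with 3879.7, 4586 and 6542 in IP and 1203, 1544 and 1832 in WB. Every IP array was above every WB array by a wide margin. The difference was 1.57 (SE 0.13, adjusted p = 3.08e-10), or 2.97-fold higher, and the leave-one-out values lay between 1.51 and 1.60. Kcnc1, its close relative, was higher on its brightest probe set 1443855_at, with 7349, 9723 and 16332 in IP and 3632, 4277 and 5171 in WB, again without overlap (1.29, SE 0.15, adjusted p = 1.83e-07). However, 1423559_at of the same gene gave 74.3, 187 and 402 in IP and 536, 625 and 694 in WB. That is a separation the other way, by -1.87 (SE 0.26, adjusted p = 2.74e-06). Probe set 1456965_at fell by 0.72 (SE 0.17, adjusted p = 0.00114), 1456944_at did not pass (0.04, SE 0.29, adjusted p = 0.935), and the mean over the 4 was -0.32 (adjusted p = 0.0593). Kcnc4, a further member of the family, was lower in IP on 1425090_s_at, where 680.4, 709 and 902 in IP stood below 1466, 1786 and 2518 in WB without overlap. The difference was -1.30 (SE 0.13, adjusted p = 1.71e-08), on a probe set whose ID ending marks probes shared between transcripts, and its second probe set did not pass (-0.19, SE 0.24, adjusted p = 0.565).

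Kcnq5, one of the subunits behind the M current that muscarinic receptors suppress, showed the widest disagreement of any subunit gene. Its brightest probe set 1457587_at gave 1414, 1849.8 and 3291 in IP and 549, 724 and 835 in WB, with every IP array above every WB array. Its probe set 1441071_at gave 30.8, 96.7 and 462 in IP and 879, 1202 and 1425 in WB, with every IP array below every WB array. The differences were 1.48 (SE 0.17, adjusted p = 1.73e-07) on the first and -3.53 (SE 0.33, adjusted p = 4.18e-09) on the second, 5.00 log2 units apart, and the remaining probe set had -0.04 (SE 0.25, adjusted p = 0.924). Kcnq3, the usual partner in that current, likewise had a small rise on its brightest probe set (0.50, SE 0.17, adjusted p = 0.0226) and a fall on 1458421_at (-1.90, SE 0.33, adjusted p = 3.9e-05), and the rise turned under hybridization control scaling (-0.44). Kcnq1, a subunit of heart and epithelia, did not pass (-0.28, SE 0.40, adjusted p = 0.597).

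Shaker-type subunits of the Kcna family sit on axons and near nodes and limit repetitive firing. Of their 16 probe sets 1 was higher in IP and 8 lower (6.25% and 50%, with 14.2% and 30.8% over all probe sets). On the brightest probe sets 3 of 7 genes were lower and none higher, where over all genes 21.7% were lower and 21.7% higher. Kcna3 had 1 probe set, with 18.3, 114 and 210.0 in IP and 232, 313 and 416 in WB, no overlap, and a difference of -1.66 (SE 0.33, adjusted p = 0.000215). Kcna1 was lower on 3 of 4 probe sets. The widest of these was 1437230_at, with 341, 532 and 915 in IP and 1782, 1933 and 2060.4 in WB, no overlap, and a difference of -1.76 (SE 0.17, adjusted p = 6.41e-09). The brightest Kcna1 probe set fell by less, -0.41 (SE 0.12, adjusted p = 0.009), and its direction turned with median centring (0.02). Kcna2 was lower without overlap on 1439872_at (-1.14, SE 0.13, adjusted p = 5.94e-08) and on 1422197_at (-2.98, SE 0.41, adjusted p = 1.72e-06). Its brightest probe set, 1440759_at, had -0.36 (SE 0.15, adjusted p = 0.0582). It passed as lower after quantile normalization (-0.49, adjusted p = 0.00729), with the hybridization controls as scale (-1.29, adjusted p = 1.28e-05) and in 3 other fits, namely the filter at the median brightness, array weights and without the 4 IP arrays, with adjusted p of 0.0204 to 0.0451, and its direction turned with median centring (0.07). Kcna6 was lower on 1456954_at (-1.08, SE 0.20, adjusted p = 8.55e-05) and 1421568_at (-0.90, SE 0.29, adjusted p = 0.0129) and higher on 1441049_at (0.80, SE 0.22, adjusted p = 0.00466). Kcna4, Kcna5 and Kcna7 did not pass, with differences from -0.37 to 0.25.

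The beta subunits Kcnab1, Kcnab2 and Kcnab3 bind Kcna channels in the cytoplasm. Of their 6 probe sets 5 were lower in IP (83.3%, with 30.8% over all probe sets) and none passed as higher. Kcnab1 had its brightest probe set at 0.08 (SE 0.19, adjusted p = 0.761), while 1454043_a_at gave 11.9, 84.9 and 158 in IP and 424, 589.8 and 646 in WB, no overlap, and a difference of -2.83 (SE 0.33, adjusted p = 1.37e-07). Kcnab2 and Kcnab3 fell on both of their probe sets. On the brightest, Kcnab2 fell by 1.16 (SE 0.24, adjusted p = 0.000242) and Kcnab3 fell by 1.21 (SE 0.31, adjusted p = 0.00257). These were the 2 genes, of 46 with more than 1 probe set, for which every probe set was called and all in one direction, which is 4.35%, where over all genes on the array the share was 8.91%. Their dimmer probe sets, 1416956_at of Kcnab2 and 1421790_a_at of Kcnab3, no longer passed after quantile normalization or median centring, and the fall on 1416956_at was lost in 10 of the 18 fits that each left out 1 array. The log2 means of 1421790_a_at, 4.99 in IP and 5.76 in WB, lay below the trpn levels of 6.31 and 5.92. With the Kcna and Kcnab genes taken as the 22 probe sets of 1 complex, 1 was higher and 13 lower. Those are 4.55% and 59.1%, with 14.2% and 30.8% over all probe sets. Relative to the median of all probe sets, their median was -0.52 with the deposited scaling, -0.60 after quantile normalization and -0.46 with the hybridization controls. Of the other proteins of this complex, Cntnap2 was 2.64-fold higher in IP on its brightest probe set (adjusted p = 6.14e-09), with 1 of its 3 probe sets lower. Cntn2 was 3.69-fold lower (adjusted p = 4.27e-06). Adam22 was 2.27-fold lower (adjusted p = 5.8e-06), and Lgi1 did not pass (-0.42, adjusted p = 0.121).

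**Figure D3:**
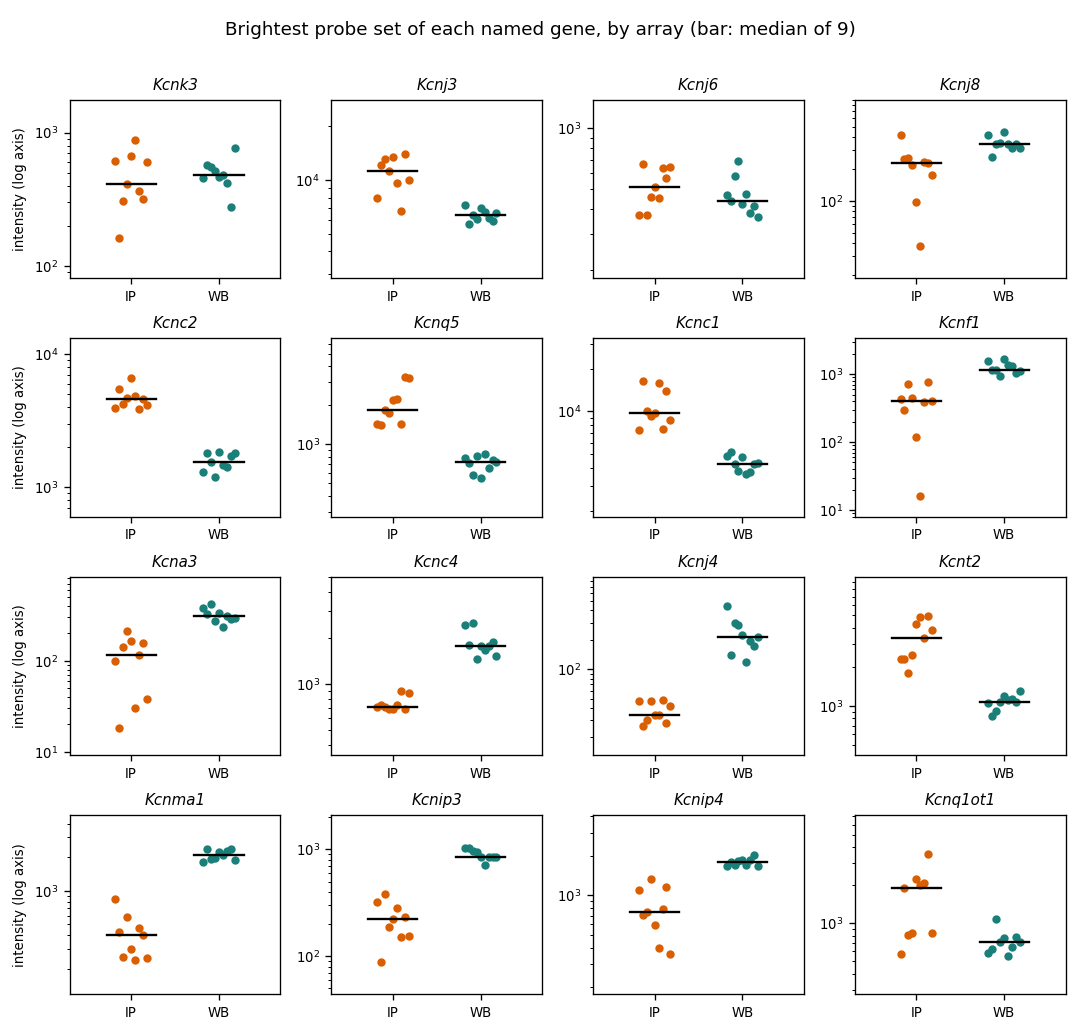
Intensity on a log axis of the brightest probe set of each gene named by rule, for 9 IP arrays (left, orange) and 9 WB arrays (right, green), with a bar at the median. Kcnc2, Kcnq5, Kcnc1 and Kcnt2 have every IP array above every WB array, Kcnf1, Kcna3, Kcnc4, Kcnj4, Kcnma1, Kcnip3 and Kcnip4 have every IP array below, and Kcnk3 and Kcnj6 overlap.

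Kcnd subunits carry the A-type current that delays a spike, in a complex with the calcium-binding Kcnip proteins and the Dpp6 and Dpp10 transmembrane proteins. No Kcnd gene passed on its brightest probe set, with differences of 0.03 for Kcnd1, -0.17 for Kcnd2 and 0.33 for Kcnd3. Kcnd3 passed as higher after median centring (0.76, adjusted p = 0.000477), after quantile normalization (0.43, adjusted p = 0.0186), with array weights (0.38, adjusted p = 0.0351) and without the 4 IP arrays (0.48, adjusted p = 0.0166), and as lower with scaling to the hybridization controls (-0.60, adjusted p = 0.0442). On other probe sets, Kcnd2 was higher in IP on 1447764_at, with 279.7, 368 and 672 in IP and 77.4, 142 and 232 in WB, no overlap, and a difference of 1.50 (SE 0.23, adjusted p = 8.43e-06). It was also higher on 1422835_at (0.40, SE 0.14, adjusted p = 0.0223), although with the hybridization controls as scale this turned (-0.53). Kcnd3 probe set 1447513_at fell by 1.08 (SE 0.24, adjusted p = 0.000636).

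The Kcnip genes of that complex were lower in IP on the brightest probe set for 3 of 4, where over all genes 21.7% were lower. Kcnip3, whose product also represses transcription and binds presenilins, gave 88.8, 226 and 386 in IP and 707, 857 and 1038 in WB on 1449129_a_at. The groups were far apart, with a difference of -2.01 (SE 0.21, adjusted p = 3.45e-08), 4.04-fold lower, while its dim second probe set had -0.01 (SE 0.28, adjusted p = 0.98). Kcnip4 was lower without overlap on 1450370_a_at, with 355, 743 and 1323 in IP and 1672, 1785 and 2034 in WB (-1.28, SE 0.20, adjusted p = 1.41e-05). On 1451840_at the same gene gave 802, 1421 and 3180.1 in IP and 488, 600.0 and 681 in WB, and was higher without overlap (1.32, SE 0.19, adjusted p = 3.78e-06). Its remaining probe set did not pass, and the mean over the 3 was -0.06 (adjusted p = 0.745). Kcnip1 was lower on 2 probe sets, where the brightest fell by 0.91 (SE 0.19, adjusted p = 0.000454), and higher on 1454504_at by 1.36 (SE 0.34, adjusted p = 0.00198). Kcnip2 was higher on its brightest (0.37, SE 0.14, adjusted p = 0.0331), a direction that turned under hybridization control scaling (-0.55), and lower on 1425870_a_at (-2.01, SE 0.29, adjusted p = 2.91e-06). Dpp10 was 1.86-fold higher in IP on its brightest probe set (adjusted p = 0.000291), with its second probe set lower, and Dpp6 did not pass (0.05, adjusted p = 0.773).

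Ether-a-go-go type subunits of the Kcnh family include slow channels that stabilise the resting potential. Kcnh1 and Kcnh7 were lower in IP on their brightest probe sets. Kcnh1 fell by 0.81 (SE 0.21, adjusted p = 0.00334) and Kcnh7 fell by 1.00 (SE 0.30, adjusted p = 0.00902), and neither passed after quantile normalization or after median centring. Kcnh3 had -0.20 (SE 0.19, adjusted p = 0.413) on its brightest probe set, but was higher on 1459107_at, with 641, 1169 and 1727 in IP and 98, 258 and 369.6 in WB. No array overlapped there, and the difference of 2.18 (SE 0.23, adjusted p = 2.29e-08) was the largest rise of any member. Its probe set 1445805_x_at, of an ID class that can match other genes, was also higher (1.01, SE 0.18, adjusted p = 7.85e-05). Kcnh2, Kcnh5 and Kcnh8 did not pass.

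The silent subunits of the Kcnf, Kcng, Kcns and Kcnv families form no channel alone and modify others. Of their 15 probe sets 2 were higher in IP and 4 lower. Those are 13.3% and 26.7%, near the 14.2% and 30.8% of all probe sets. Kcnf1 gave 15.8, 399.9 and 757 in IP and 932, 1156 and 1689 in WB on 1454768_at, with no overlap although the lowest IP array was far below the others. The difference was -2.01 (SE 0.41, adjusted p = 0.000292). Its dim second probe set, 1441300_at, was higher by 1.20 (SE 0.42, adjusted p = 0.021), on ranges that overlapped. Kcng4 fell by 1.14 (SE 0.28, adjusted p = 0.00188), Kcns1 fell by 1.17 (SE 0.32, adjusted p = 0.00433) and the dimmer probe set of Kcns2 fell by 1.50 (SE 0.48, adjusted p = 0.012). Against the trpn level in IP, Kcns1 was at least 1.67-fold lower and that Kcns2 probe set at least 2.59-fold lower. Kcnv1 was higher on its brightest probe set (0.61, SE 0.23, adjusted p = 0.0354), a call lost in 8 of the 18 fits that each left out 1 array and a direction that turned under hybridization control scaling (-0.29). Amigo1, a membrane protein that assembles with delayed rectifier channels, was 3.41-fold higher in IP on its brightest probe set (adjusted p = 3.53e-06), with 1 of its other 4 lower.

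On the brightest probe sets, 3 of the 12 two-pore genes rose in IP, 2 fell and 7 did not pass, where over all genes 21.7% rose and 21.7% fell. Kcnk12, which encodes a silent or weakly conducting subunit, was higher in IP, with 26.5, 113 and 188 in IP and 9.85, 13.7 and 38.3 in WB on 1441280_at. In IP 6 of 9 arrays lay above the highest WB array, at intensities near the bottom of the scale in WB, and the difference was 1.64 (SE 0.31, adjusted p = 0.000142). Kcnk5, an alkaline-activated subunit, was higher by 0.99 (SE 0.30, adjusted p = 0.00837) on its brightest probe set. Its second had -0.28, and neither the mean over both (0.36, adjusted p = 0.335) nor the brightest under hybridization control scaling (0.20, adjusted p = 0.629) passed. Kcnk2, a stretch- and lipid-sensitive subunit, was higher by 0.50 (SE 0.18, adjusted p = 0.03), a call lost in 5 of the 18 fits that each left out 1 array and a direction that turned under hybridization control scaling (-0.42). Kcnk10, the relative of Kcnk2, fell by 0.98 (SE 0.35, adjusted p = 0.0256) and Kcnk16, known from the pancreas, fell by 1.41 (SE 0.36, adjusted p = 0.00232). Kcnk13, a channel of microglia, had -0.01 (SE 0.31, adjusted p = 0.986) on its brightest probe set and was higher on a dim one whose ID class can match other genes (1.21, SE 0.32, adjusted p = 0.00339), a call lost without the 4 IP arrays (0.65, adjusted p = 0.107). The microglial markers Aif1 and C1qa were at least 5.22-fold and 4.46-fold lower in IP, measured against the trpn level, and Csf1r 3.44-fold higher, and their part in the value of Kcnk13 was not tested. Kcnk1, a weakly conducting member, had overlapping ranges of 1946, 2428 and 2977 in IP and 1792, 2118 and 3224 in WB (0.09, SE 0.13, adjusted p = 0.594). No two-pore probe set separated the groups without overlap.

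Kcnma1, the pore of the large-conductance channel opened jointly by calcium and voltage, was lower in IP on 4 of its 5 probe sets. The brightest, 1424848_at, gave 239, 401 and 838 in IP and 1815, 2101 and 2362 in WB. The lowest WB array was above the highest IP array by more than a factor of 2, and the difference was -2.39 (SE 0.20, adjusted p = 5.78e-10), 5.23-fold lower. Probe set 1425987_a_at separated the groups as well, with 15.5, 287 and 1106 in IP and 1301, 1443 and 1735 in WB (-2.66, SE 0.48, adjusted p = 6.41e-05). Probe set 1440728_at fell by 1.02 (SE 0.31, adjusted p = 0.00958) and 1457018_at fell by 1.54 (SE 0.38, adjusted p = 0.00166), and 1428948_at did not pass (-0.38, SE 0.21, adjusted p = 0.156). Relative to the median of all probe sets, the median of the 5 was -1.31, and -1.26 to -1.20 under quantile normalization, the hybridization controls and without the 4 IP arrays. Its beta subunits Kcnmb1, Kcnmb2 and Kcnmb4 did not pass on any of their 5 probe sets, with differences between -0.26 and 0.50. After quantile normalization 2 of the 5 were higher in IP (24.1% of all probe sets), and after median centring also 2 (28.4%). Under hybridization control scaling none was higher and 2 were lower (62.4% of all probe sets), among them Kcnmb4 (-0.68, adjusted p = 0.014). Kcnmb4, the neuronal one, gave 759.9, 981 and 1702 in IP and 762, 877 and 971 in WB (0.25, SE 0.14, adjusted p = 0.175). Of the gamma subunit genes, Lrrc26, Lrrc38 and Lrrc52 did not pass either.

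Kcnt2, which encodes a sodium-activated channel, was the only gene of its class that was higher in IP. Its single probe set 1459971_at gave 1789.6, 3335 and 4965 in IP and 826, 1074 and 1293 in WB. Every IP array was above every WB array, and the difference was 1.55 (SE 0.18, adjusted p = 1.33e-07), or 2.93-fold. Kcnt1, its relative, did not pass on 3 probe sets, with 0.39 (SE 0.18, adjusted p = 0.0858) on the brightest, which passed as higher after quantile normalization (0.63, adjusted p = 0.00249), after median centring (0.81, adjusted p = 0.000343), with array weights and without the 4 IP arrays. Among the small-conductance calcium-activated subunits, which set the pause after a spike, Kcnn3 fell by 1.21 (SE 0.38, adjusted p = 0.0117) with overlapping ranges, while Kcnn1, Kcnn2 and Kcnn4 did not pass. Kcnu1, a sperm channel, did not pass (0.47, SE 0.25, adjusted p = 0.143) with the deposited scaling and was higher with each array centred on its median (0.89, adjusted p = 0.0061) and after quantile normalization (0.97, adjusted p = 0.00256).

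The Kcne genes, small single-span partners known mainly from heart and epithelia, had 1 call among 6 probe sets (16.7% lower, with 30.8% over all probe sets). This was a dim probe set of Kcne1, which fell by 0.74 (SE 0.27, adjusted p = 0.0268), with 3.07, 7.8 and 15.4 in IP and 7.66, 17.1 and 103 in WB. Of all 167 members, 19 had mean values in both groups below those of the trpn controls, and 3 of these were called. In IP alone 41 members were under that level, of which 13 were lower than in WB, and the size of such a fall depends on the value of 16 added before the logarithm.

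Kcnq1ot1, the imprinted noncoding RNA transcribed antisense to Kcnq1, had 6 probe sets and the widest gap between calls of any member. Its brightest, 1442029_at, gave 573, 1894 and 3550.1 in IP and 554, 708 and 1089.8 in WB, with 5 IP arrays above the highest WB array and a difference of 0.97 (SE 0.27, adjusted p = 0.00518). This call was lost without the 4 IP arrays (0.38, adjusted p = 0.191). On 1459443_at IP arrays gave 16.2, 19.8 and 30, against 610.0, 797 and 1038 in WB. The IP values lay together near the bottom of the scale, and the difference of -4.43 (SE 0.21, adjusted p = 4.7e-14) was the largest fitted fall of all 167. The IP mean lay under the trpn level, against which the probe set was at least 10.0-fold lower. The other 4 probe sets were lower too, with differences of -2.06 to -0.86. The largest of these falls, on 1458161_at, was at least 3.47-fold against the trpn level in IP. The falls on 1446255_at and 1441588_at did not pass after quantile normalization or median centring (adjusted p of 0.131 to 0.319), and 1446255_at lost its call in 12 of the 18 fits that each left out 1 array. The sources used here do not say whether these probe sets tell Kcnq1ot1 from overlapping transcripts of the other strand. Kcnmb4os1 and Kcnmb4os2, from the strand opposite Kcnmb4, did not pass.

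**Figure D4:**
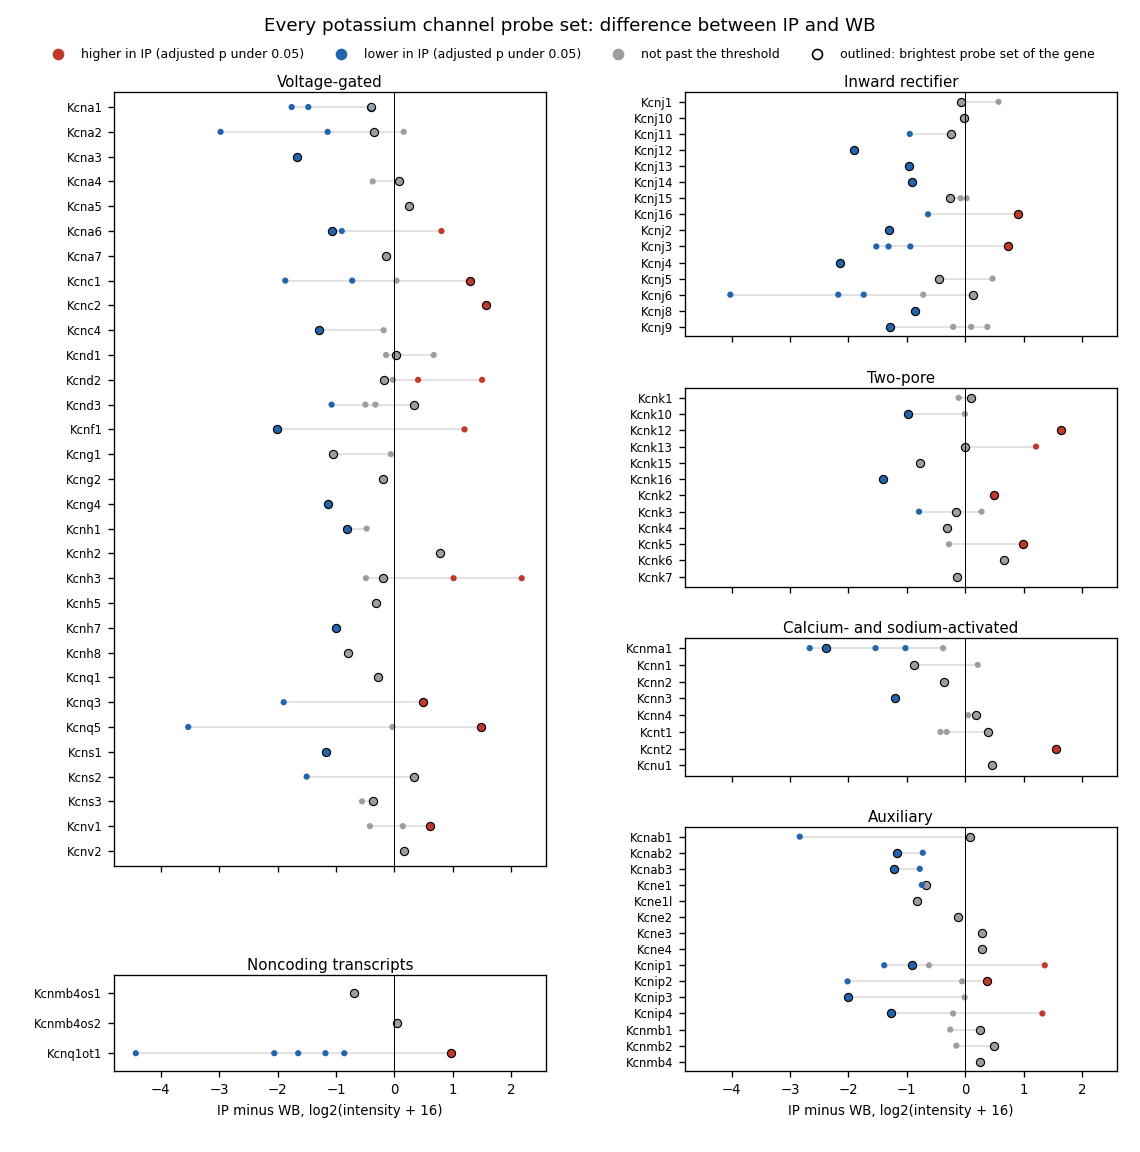
Difference between IP and WB on the log2(intensity + 16) scale (horizontal axis) for all 167 probe sets, 1 row per gene and 1 panel per class, with probe sets higher in IP in red, lower in blue, not past the threshold in grey, and the brightest of each gene outlined. Grey lines join the probe sets of a gene, and for Kcnq1ot1, Kcnq5, Kcnf1 and Kcnc1 they run across 0 from a called fall to a called rise.

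Disagreement between probe sets of a gene was common. Of the 46 genes with at least 2 probe sets, 11 had calls in both directions, which is 23.9%, and over all genes on the array this share was 22.0% (1985 of 9010). Another 17 had falls only, 5 rises only and 13 no call. The 11 were Kcnq1ot1, Kcnq5, Kcnf1, Kcnc1, Kcnip1, Kcnip4, Kcnq3, Kcnip2, Kcnj3, Kcna6 and Kcnj16, with gaps between the highest and the lowest called difference of 5.40 for Kcnq1ot1 down to 1.54 for Kcnj16. The mean over a gene's probe sets did not pass where the brightest one did for Kcna6, Kcnf1, Kcnv1, Kcnj9, Kcnj16, Kcnk5, Kcnk10, Kcnip1, Kcnip4 and Kcnc1. The median range within a gene was 1.24 for the members and 1.30 for all genes. Probe sets built on the same sequence record differed as well. In 12 pairs of member probe sets with a shared record, the gap was 0.44 to 2.28, the widest for 2 probe sets of Kcnj6. Of 25 member probe sets whose ID ends in _a_at, a class that matches several transcripts of 1 gene, none was higher in IP and 9 were lower, where over all such probe sets 16.3% were higher and 40% lower. Of 139 without any such ending 20 were higher and 49 lower, where over all of them 11.6% and 30.8% were. The difference between the endings was not tested.

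Genes outside the rule that encode partners or relatives of these channels were also read. Of 17 listed, 14 were measured, and on their brightest probe sets 4 were higher in IP, 2 lower and 8 did not pass, where over all genes on the array 21.7% were higher and 21.7% lower. Abcc8, the sulfonylurea receptor that joins Kcnj11, was 1.48-fold higher (adjusted p = 0.012) with its other probe set lower, and Abcc9, the receptor that joins Kcnj8, did not pass (0.46, adjusted p = 0.438). Hcn2 and Hcn3, pacemaker channels related in structure, did not pass either.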

How the data were processed

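Expression was measured on 9 IP and 9 WB arrays, grouped by their labels. The authors deposited intensities on a linear scale, for which the submitters' processing notes name MAS5 (version not given in the sources used here). Each array's mean, trimmed by 2% at both ends, was close to 500. Values were analysed here as log2(intensity + 16), a scale on which folds understate changes of dim probe sets. The 64 control probe sets were left out, no brightness filter was applied, and limma 3.58.1 (R 4.3.3, statmod 1.5.0) was run on 45037 probe sets with an intensity trend in the empirical Bayes step and Benjamini-Hochberg adjustment over all of them. Adjusted p-values are from that fit.

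Gene symbols came from the platform annotation, in which 34945 tested probe sets had 1 symbol, 932 several and 9160 none. All 167 members matched a reference gene table by Entrez ID, and 0 were renamed. The members, classes and lists were chosen with earlier results of these data known. Named genes were Kcnk3, Kcnk9, Kcnj3, Kcnj6 and Kcnj8. To these were added, on each gene's brightest probe set and among calls without overlap between groups, the 3 largest rises and 3 largest falls of the voltage-gated class and 2 of each in other classes. The 3 genes with the widest gap between opposite calls were also named. Other genes were named after their values were seen. Replicate numbers in the labels were checked for pairing. The correlations of same-numbered arrays' deviations lay between -0.05 and 0.08 over 9 pairs, which gave no sign of pairing. Low correlations over noisy probe sets cannot show that the samples were unpaired. Alternatives were other pseudocounts (1 and 64), 3 other scalings (quantile normalization, median centring and the hybridization controls), a filter at the median brightness, no intensity trend, array weights, a replicate block, leaving out each array, probe sets without shared sequence, and the mean over a gene's probe sets. Leaving out 4 IP arrays together was added after seeing the data.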

Additional observations from a re-analysis of the deposited data

Results flagged for a closer look

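In 23 of 222 groups of 9 arrays tested, which is 10.4%, the highest or the lowest array stood apart from the nearest other by more than a set share of the group's whole range on the log2 scale. Chance flags about 1 in 20 groups, and 13 of these were IP groups and 10 WB groups. No explanation was tested. In IP, 1 array was far above the others for Kcns1 1421518_at (172, with the nearest at 47.94, replicate 8), Kcnj10 1419601_at (3156, with the nearest at 1480, replicate 1), Kcnj11 1455417_at (1276, with the nearest at 870.9, replicate 8), Kcnj6 1450294_a_at (133.5, with the nearest at 29.74, replicate 7), Kcnn3 1421632_at (478.1, with the nearest at 100.8, replicate 1) and Kcnip3 1418544_at (148.5, with the nearest at 52.28, replicate 7). Values are intensities. In IP, 1 array was far below the others for Kcnh7 1427634_at (38.64, with the nearest at 175.2, replicate 9), Kcnq1 1449464_at (19.95, with the nearest at 94.33, replicate 2), Kcns2 1457325_at (163.9, with the nearest at 639.2, replicate 6), Kcnj14 1452243_at (24.83, with the nearest at 96.4, replicate 3), Kcnma1 1440728_at (37.73, with the nearest at 188.4, replicate 3), Kcnt1 1458428_at (348.8, with the nearest at 676.4, replicate 5) and Kcnab2 1416956_at (112, with the nearest at 397.2, replicate 8).

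In WB, 1 array was far above the others for Kcnf1 1441300_at (158.7, with the nearest at 46.12, replicate 9), Kcnab3 1421790_a_at (92.64, with the nearest at 44.15, replicate 8) and Kcnq1ot1 1442029_at (1090, with the nearest at 772.8, replicate 3). In WB, 1 array was far below the others for Kcna2 1422197_at (411.6, with the nearest at 594.3, replicate 3), Kcnq1 1449464_at (29.63, with the nearest at 143.9, replicate 5), Kcnq3 1458421_at (391.2, with the nearest at 539.5, replicate 1), Kcnq5 1441071_at (878.8, with the nearest at 1117, replicate 9), Kcns2 1421342_at (85.15, with the nearest at 168.5, replicate 1), Kcnj10 1419601_at (901.4, with the nearest at 1141, replicate 6) and Kcnj3 1444336_at (14.31, with the nearest at 60.71, replicate 9).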

How the results depend on the processing

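With each array left out in turn, 20 to 26 member probe sets were higher in IP and 54 to 62 lower, and 11 to 16 genes on their brightest probe sets were higher and 25 to 28 lower. Scaling moved the counts most. With the hybridization controls as the scale 6 probe sets were higher and 115 lower (3.24% and 62.4% of all probe sets), and 4 genes were higher and 56 lower. Median centring gave 37 and 39 probe sets (28.4% and 18.5% of all probe sets) and 24 genes higher. Quantile normalization gave 34 probe sets higher (24.1% of all probe sets) and 21 genes higher. The filter at the median brightness, which tests fewer probe sets, left 37 lower. Without the 4 IP arrays 24 were higher and 51 lower (15% and 29% of all probe sets). No share over all genes is given here for these scalings. For the filter, the replicate block and single arrays left out, no share over the array is given either. Counts without such a share do not set the members apart from the array. The replicate block gave 21 higher and 58 lower. It ended the calls of Kcnd2 1422835_at (0.40, adjusted p = 0.0618), Kcnj11 1450515_at (-0.95, adjusted p = 0.0573), Kcnip2 1436275_at (0.37, adjusted p = 0.0703) and Kcnq1ot1 1446255_at (-0.86, adjusted p = 0.0535). In the pairing check 2 of 9 arrays correlated best with their own number, which does not settle whether the numbers pair the samples.

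With scaling on the hybridization controls the difference of Kcna4 1438613_at (-0.86), Kcna6 1441049_at (-0.076), Kcnc1 1456944_at (-0.87), Kcnd1 1446556_at (-0.84), Kcnd2 1422835_at (-0.53), Kcnd3 1435720_at (-0.60), Kcnq3 1435957_at (-0.44), Kcns2 1457325_at (-0.58), Kcnv1 1429741_at (-0.29), Kcnj16 1435094_at (-0.024), Kcnj3 1455374_at (-0.21), Kcnj5 1421762_at (-0.15), Kcnj6 1425707_a_at (-0.78), Kcnk1 1448690_at (-0.84), Kcnk2 1449158_at (-0.42), Kcnk3 1425342_a_at (-0.36), Kcnt1 1458428_at (-0.53), Kcnu1 1422838_at (-0.33), Kcnab1 1448468_a_at (-0.83), Kcnip2 1436275_at (-0.55) and Kcnmb4 1449471_at (-0.68) changed sign. With median centring the difference of Kcna1 1417416_at (0.017), Kcna2 1440759_at (0.067), Kcnc4 1425089_at (0.24), Kcnd2 1422834_at (0.25), Kcnh3 1421619_at (0.22), Kcnq1 1449464_at (0.14), Kcnq5 1427426_at (0.39), Kcnj1 1418614_at (0.35), Kcnj10 1419601_at (0.40), Kcnj11 1455417_at (0.18), Kcnk13 1424125_at (0.42), Kcnk3 1425341_at (0.27), Kcnma1 1428948_at (0.045), Kcnn2 1448927_at (0.068), Kcnip3 1418544_at (0.41) and Kcnip4 1437631_at (0.21) changed sign. With quantile normalization the difference of Kcnc4 1425089_at (0.22), Kcnq1 1449464_at (0.16), Kcnq5 1427426_at (0.29), Kcnj1 1418614_at (0.27), Kcnj10 1419601_at (0.040), Kcnj3 1455374_at (-0.13), Kcnk1 1448690_at (-0.11), Kcnk13 1424125_at (0.43), Kcnk3 1425341_at (0.15) and Kcnip3 1418544_at (0.49) changed sign. With the mean over the probe sets of a gene, set against its brightest the difference of Kcna4 (-0.15), Kcnc1 (-0.32), Kcnd2 (0.42), Kcnd3 (-0.39), Kcnh3 (0.62), Kcnq3 (-0.70), Kcnq5 (-0.70), Kcns2 (-0.59), Kcnj1 (0.25), Kcnj3 (-0.76), Kcnj5 (0.010), Kcnj6 (-1.70), Kcnk1 (-0.011), Kcnk13 (0.60), Kcnt1 (-0.12), Kcnab1 (-1.38), Kcnip2 (-0.57) and Kcnq1ot1 (-1.53) changed sign. With array weights the difference of Kcnq5 1427426_at (0.047), Kcnj10 1419601_at (0.091) and Kcnk13 1424125_at (0.072) changed sign. With a pseudocount of 64 the difference of Kcnk13 1424125_at (0.030) and Kcnip3 1418544_at (0.018) changed sign. Without the 4 IP arrays the difference of Kcna4 1438613_at (-0.21), Kcnd1 1446556_at (-0.027), Kcnq1 1449464_at (0.10), Kcnq5 1427426_at (0.15), Kcnj1 1418614_at (0.080), Kcnj10 1419601_at (0.12), Kcnk13 1424125_at (0.50) and Kcnip3 1418544_at (0.084) changed sign. Leaving out 1 array at a time turned the sign of only these differences, which did not pass with all arrays and then ranged from -0.042 to 0.17 for Kcna4 1438613_at, from -0.0033 to 0.14 for Kcnab1 1448468_a_at, from -0.096 to 0.22 for Kcnc1 1456944_at, from -0.042 to 0.092 for Kcnd1 1446556_at, from -0.21 to 0.11 for Kcnip3 1418544_at, from -0.19 to 0.067 for Kcnj10 1419601_at, from -0.14 to 0.20 for Kcnk13 1424125_at, from -0.28 to 0.0082 for Kcnk3 1425341_at and from -0.22 to 0.072 for Kcnq5 1427426_at.

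The cause of these changes was not tested. Calls lost when single arrays were left out were those of Kcnk3 1426058_a_at and Kcnj11 1450515_at (13 of 18 fits each), Kcnq1ot1 1446255_at (12), Kcnab2 1416956_at (10), Kcnv1 1429741_at (8), Kcnip2 1436275_at (6), Kcnk2 (5) and, in 2 fits each, Kcne1 1420672_at, Kcnk10 and Kcnq1ot1 1441588_at. Differences that did not pass gained a call in their own direction, 6 after quantile normalization, 8 after median centring, 5 without the 4 IP arrays, 3 with array weights and 15 with the hybridization controls as scale. With a pseudocount of 1 all 111 single differences kept their direction and their side of the threshold. Signal over background limits the dim probe sets, 19 of which lay under the trpn controls in both groups.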
